A study of Mus musculus with 52 samples.

Results

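The 9 genes described here are the STAT transcription factors Stat2, Stat3, Stat4, Stat5a, Stat5b and Stat6 and the feedback genes Socs1, Socs3 and Cish, chosen by name from the 27525 genes of the deposited table, and each of the 9 has a row in it. They were measured by bulk RNA-seq in subcutaneous KPC tumors, which were grown from 1 line of mouse pancreatic tumor cells (KxPxCx) carrying KrasLSL.G12D/+, Trp53LSL.R172H/+ and Pdx1-Cre and injected into the flanks of syngeneic wild-type male C57BL/6NHsd mice of 8 to 10 weeks. All groups share these cells and hosts. Each of the 4 groups holds 8 individual, unpooled tumors, resected on day 14 after treatment began. The groups were untreated tumors, tumors given 2 µg of ADU-S100 (a cGAMP analog that activates the innate sensor STING) once into the tumor, tumors of mice injected intraperitoneally 4 times with 4H8, an antibody that activates the lymphotoxin beta receptor (anti-LTβR, 100 µg each time), and tumors given both agents (combination). Pdx1-Cre acted in the pancreas of the donor mouse, so the mutant alleles belong to the injected cells and not to the host cells of the tumor. No vehicle or isotype antibody is named for the untreated tumors.

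Cytokine receptors carry JAK kinases, which phosphorylate STAT proteins after a ligand binds. The STATs then pair, enter the nucleus and bind GAS elements, while STAT2 joins IRF9 in the ISGF3 complex that binds ISRE elements after type I interferon. SOCS proteins and CISH are made in response to STATs and act back on the receptor or kinase, so their transcripts are often read as traces of recent cytokine signalling. RNA-seq measures the transcripts of these genes and not the phosphorylation of their proteins.

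The windows from 250 bases before to 50 bases after the annotated start (RefSeq, GRCm38.p6) were searched on both strands for the GAS core TTCNNNGAA, its form with 4 spacer bases TTCNNNNGAA, and the ISRE core GAAANNGAA. All 9 genes matched at least 1 window, 12 in all. A GAS core stood in the windows of 2 genes, Socs3 and Cish, an ISRE core in those of 3, Socs1, Stat2 and Stat4, and the form with 4 spacer bases in that of 1, Stat2. Among all 32851 windows of the table, 8.3% held the GAS core, 6.95% the form with 4 spacer bases and 8.56% the ISRE core. These 5 windows are printed because Socs1 holds the interferon element where Socs3 and Cish hold the STAT dimer element, and capitals mark the matches, which are letters in a window and not shown binding sites.
Socs1 (chr16:10785487-10785786, minus strand): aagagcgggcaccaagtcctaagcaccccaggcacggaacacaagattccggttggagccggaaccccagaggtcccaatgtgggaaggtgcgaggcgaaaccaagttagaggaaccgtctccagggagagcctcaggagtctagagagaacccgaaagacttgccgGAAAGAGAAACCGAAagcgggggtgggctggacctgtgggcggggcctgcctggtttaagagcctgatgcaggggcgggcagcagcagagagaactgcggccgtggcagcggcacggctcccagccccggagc
Stat2 (chr10:128270248-128270547, plus strand): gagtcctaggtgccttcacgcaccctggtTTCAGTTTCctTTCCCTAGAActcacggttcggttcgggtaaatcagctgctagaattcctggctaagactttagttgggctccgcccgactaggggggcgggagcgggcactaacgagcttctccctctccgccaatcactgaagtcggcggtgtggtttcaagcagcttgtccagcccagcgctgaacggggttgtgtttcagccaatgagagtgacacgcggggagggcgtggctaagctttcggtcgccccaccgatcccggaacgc
Stat4, second window (chr1:52007990-52008289, plus strand): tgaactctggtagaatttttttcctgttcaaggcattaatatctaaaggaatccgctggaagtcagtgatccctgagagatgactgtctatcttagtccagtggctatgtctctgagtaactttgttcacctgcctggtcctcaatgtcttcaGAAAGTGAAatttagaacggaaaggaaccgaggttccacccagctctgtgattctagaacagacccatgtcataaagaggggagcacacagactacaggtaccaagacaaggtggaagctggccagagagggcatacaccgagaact
Socs3 (chr11:117969317-117969616, minus strand): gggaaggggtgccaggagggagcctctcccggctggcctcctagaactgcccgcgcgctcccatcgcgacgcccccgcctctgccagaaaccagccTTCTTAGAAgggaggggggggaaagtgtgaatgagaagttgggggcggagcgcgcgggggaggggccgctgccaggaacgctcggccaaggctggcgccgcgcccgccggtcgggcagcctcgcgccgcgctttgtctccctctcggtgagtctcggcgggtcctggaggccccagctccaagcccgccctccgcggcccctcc
Cish (chr9:107296409-107296708, plus strand): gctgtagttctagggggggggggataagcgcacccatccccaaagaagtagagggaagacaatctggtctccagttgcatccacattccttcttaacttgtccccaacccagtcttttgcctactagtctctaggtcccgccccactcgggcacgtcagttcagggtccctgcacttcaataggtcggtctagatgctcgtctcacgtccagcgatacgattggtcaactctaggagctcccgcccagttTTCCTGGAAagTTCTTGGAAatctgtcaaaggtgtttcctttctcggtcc
The Socs1 window held 2 ISRE cores that overlap each other, Cish held 2 GAS cores, the first at its start base and the second 11 bases after it, and Socs3 held 1 GAS core 154 bases before its start. The starts of the Socs3 and Cish windows and the second Stat4 start lie inside the genes as annotated below.

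In GRCm38 (GENCODE), Stat2 (chr10:128270559-128292849) and Stat6 (chr10:127642986-127660957) lie on the plus strand of chromosome 10. On chromosome 11 lie Stat5b (chr11:100780731-100850724, minus strand), Stat5a (chr11:100859351-100885169, plus strand), Stat3 (chr11:100885098-100939540, minus strand) and Socs3 (chr11:117966079-117970047, minus strand). Stat4 (chr1:51987148-52107189, plus strand), Socs1 (chr16:10782240-10785536, minus strand) and Cish (chr9:107296026-107302784, plus strand) stand alone among the 9 on their chromosomes. All 9 are protein-coding genes.

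The deposited values are normalized counts, the reads estimated for a gene divided by 1 size factor per library. Whole reads recovered from a second deposited table ranged from 12762453 to 15591986 per tumor, so depth differed little between libraries. Per kilobase of exon (the union of exons in GENCODE's GRCm38 annotation), the mean level over the 32 tumors was 642 for Socs3, 514 for Stat6, 497 for Stat3 and 481 for Stat2. On the same scale it was 167 for Stat5b, 116 for Socs1, 55.7 for Stat5a, 53.5 for Cish and 16.8 for Stat4. The ratio of the highest to the lowest tumor, on normalized counts, was 2.8 for Stat4, 2.71 for Cish and 2.61 for Socs1, against 1.24 for each of Stat3 and Stat6, which varied least. Stat4 was the scarcest of the 9 per kilobase, at 36.5 to 102 normalized counts in single tumors, and so has the largest relative counting error.

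**Figure D1:**
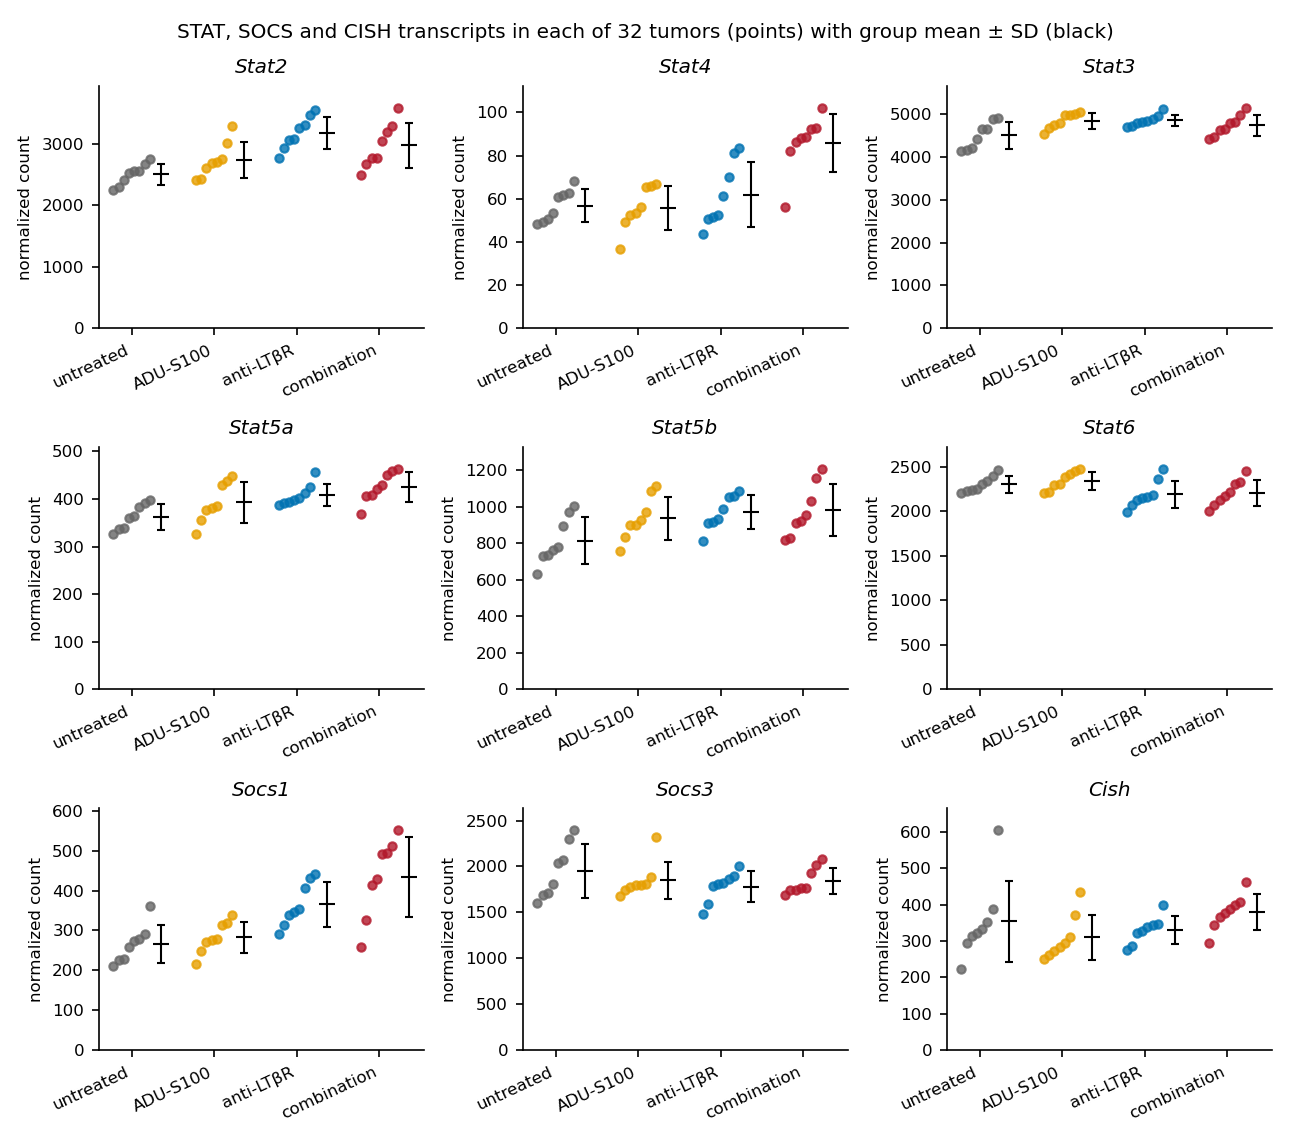
Normalized count (y axis, from 0) of each of the 9 genes in every tumor of the 4 groups (x axis); each point is 1 of 8 tumors, sorted by value within a group, and the black bars are the group mean ± SD. Stat4 in combination tumors lies at 82.3 or above in 7 of 8 tumors, Socs1 spreads from 258 to 552 there, and Stat3, Stat6 and Socs3 overlap in all groups.

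Across the comparisons, the genes that passed the test were higher with treatment, and none passed it lower. A call is an adjusted p below 0.05 from limma with a trend, run on the log2 of the normalized count plus 1 and adjusted over all genes tested. In combination against untreated tumors 5 of 9 were higher (Socs1, Stat4, Stat5b, Stat2 and Stat5a) and 0 lower, where 19.6% of all genes tested were higher and 23.6% lower. In anti-LTβR against untreated tumors 3 of 9 were higher (Socs1, Stat2 and Stat5a) and 0 lower, against 7.21% and 8.1% of all genes. In ADU-S100 against untreated tumors 0 of 9 passed, as did 0% of all genes higher and 0% lower. In that last comparison 2408 genes had an unadjusted p below 0.05, among them Stat3 (limma, adjusted p = 0.314) and Stat5b (adjusted p = 0.344). There edgeR called 1 gene and DESeq2 57, and none of these was a member, of which both tools tested 7 at most. The 3 comparisons share the same untreated tumors, and no difference of the 9 genes reached 2-fold in any comparison. The values come from whole tumors, in which more cells of a type and more RNA per cell cannot be told apart.

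**Figure D2:**
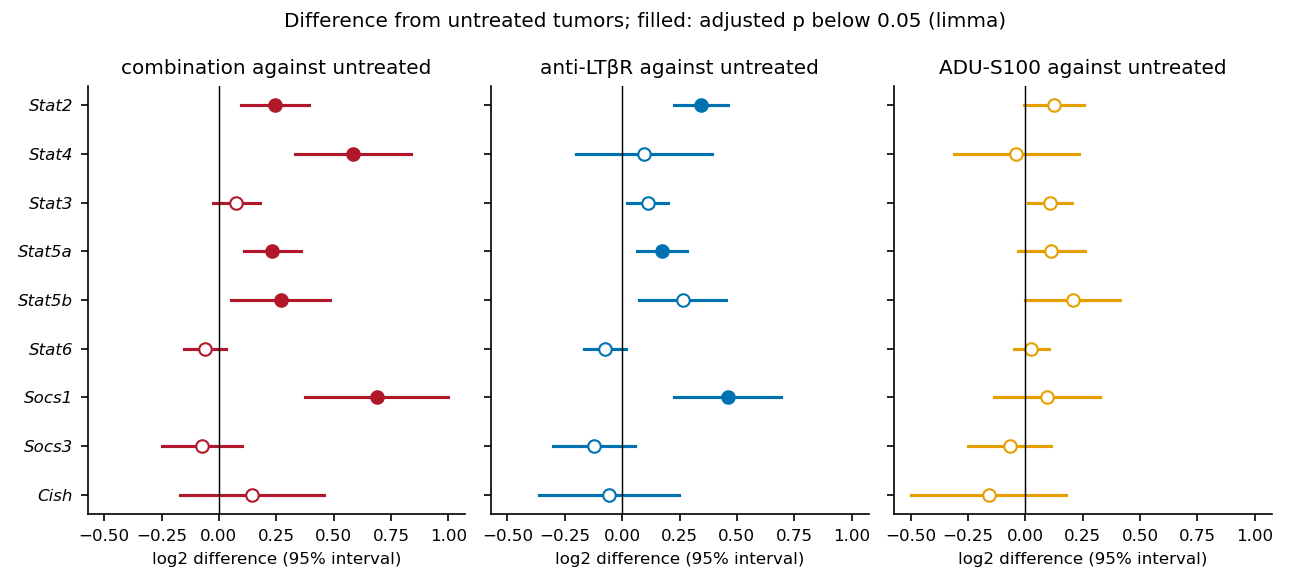
Log2 difference from untreated tumors (x axis, points) with its 95% interval (lines) for each gene (y axis), in combination, anti-LTβR and ADU-S100 tumors (panels; 8 tumors a group). Filled points have an adjusted p below 0.05 in limma: 5 genes in the combination panel, 3 in the anti-LTβR panel and 0 in the ADU-S100 panel.

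Stat2, the STAT used by type I interferon together with IRF9, was highest after anti-LTβR alone. In untreated tumors its normalized count ran from 2259 through a median of 2537 to 2763, and in ADU-S100 tumors from 2415 through 2694 to 3287. In anti-LTβR tumors it ran from 2771 through 3166 to 3554, and in combination tumors from 2498 through 2912 to 3587. Every anti-LTβR tumor was above every untreated tumor, and 6 of 8 combination tumors were. The log2 difference from untreated tumors was 0.34 (SE 0.0556, adjusted p = 0.0018) for anti-LTβR and 0.24 (SE 0.0696, adjusted p = 0.00958) for the combination. For ADU-S100 it was 0.12 (adjusted p = 0.356), and between combination and anti-LTβR tumors it was -0.10 (95% interval -0.25 to 0.05), so the order of those 2 groups was not settled.

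Irf9, the DNA-binding subunit of ISGF3, went the other way and fell in combination tumors by 0.18 (SE 0.0643, adjusted p = 0.0284), from a median of 1574 in untreated to 1421 in combination tumors. In anti-LTβR tumors the Irf9 difference was 0.03 (adjusted p = 0.683).

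Stat4, which carries IL-12 signals in T and NK cells, passed the test in each of the 3 comparisons that involve combination tumors and in none of the other 3. Its normalized count ran from 48.2 through a median of 57.1 to 68.4 in untreated and from 36.5 through 54.8 to 66.6 in ADU-S100 tumors. It ran from 43.7 through 56.8 to 83.6 in anti-LTβR and from 56.1 through 88.5 to 102 in combination tumors. In 7 of 8 combination tumors Stat4 was above every untreated tumor and above every ADU-S100 tumor, and 6 were above every anti-LTβR tumor. The eighth, combination tumor 4, was at 56.1, within the untreated range. Stat4 rose by 0.58 (SE 0.120, adjusted p = 0.00105) against untreated, by 0.49 (SE 0.148, adjusted p = 0.0235) against anti-LTβR and by 0.62 (SE 0.137, adjusted p = 0.00147) against ADU-S100 tumors, in log2 units. In anti-LTβR tumors alone its difference from untreated was 0.09 (95% interval -0.20 to 0.39). The interaction term, which asks whether both agents together depart from the sum of each on the log2 scale, was 0.53 (SE 0.195) with an adjusted p of 0.055 in limma and 0.0493 in DESeq2 on recovered reads, so its call depended on the tool. Over all genes 7.33% had a called positive and 11% a called negative interaction.

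Genes of the IL-12 and STAT4 axis were called in partly other comparisons than Stat4. Of 7 genes known as STAT4 targets, 4 were higher and 1 lower in combination against untreated tumors, with a median log2 difference of 1.00 beside -0.02 over all genes. Il12rb2, the signalling chain of the IL-12 receptor, rose by 1.48 (SE 0.280, adjusted p = 0.000566), Tbx21, the T-bet factor of type 1 lymphocytes, by 1.00 (SE 0.182, adjusted p = 0.000421), and Il18r1 by 1.00 (SE 0.148, adjusted p = 8.7e-05). Ifng rose by 1.34 (SE 0.295, adjusted p = 0.00174), and Furin, a protease, was the gene that fell, by 0.14 (adjusted p = 0.0267). In anti-LTβR against untreated tumors, where Stat4 was not called, 3 of the 7 were higher and 0 lower (Ifng by 1.06, Il12rb2 by 0.91 and Tbx21 by 0.61). In combination against anti-LTβR tumors, where Stat4 was called, 1 of the 7 was higher, Il18r1 by 0.73 (adjusted p = 0.000794), and 0 lower. Immune cell markers were also higher in combination against untreated tumors, namely 5 of 5 of T cells, 4 of 5 of B cells, 4 of 5 of leukocytes and 2 of 5 of NK cells, as were 5 of 5 of endothelial cells, and none of them was at 0 in every tumor of a group. The B cell list had a median log2 difference of 1.37 and the endothelial list of 0.90. The summed T cell level ran from 332 to 860 in untreated, 428 to 585 in ADU-S100, 567 to 836 in anti-LTβR and 662 to 1128 in combination tumors. Summed leukocyte markers ran from 12213 to 16617 in untreated, 12798 to 15294 in ADU-S100, 14562 to 17500 in anti-LTβR and 14617 to 20558 in combination tumors. Summed NK cell markers ran from 326 to 525 in untreated, 277 to 417 in ADU-S100, 435 to 629 in anti-LTβR and 465 to 647 in combination tumors. Within groups, Stat4 was related to the leukocyte sum (deviations from group means over 32 tumors, Pearson r = 0.538, permutation p = 0.00111, adjusted p = 0.026, Spearman rho = 0.492, permutation p = 0.00405, adjusted p = 0.0474, and r = 0.426 without the 2 tumors farthest from the median), 1 of 6 relations with an adjusted p below 0.05 among 117 computed between a member and a marker sum. With the T cell sum Stat4 had r = 0.318 (permutation p = 0.0578, adjusted p = 0.226, rho = 0.246, permutation p = 0.189, adjusted p = 0.434, and r = 0.282 without 2 tumors). With the NK cell sum it had r = 0.475 (permutation p = 0.00504, adjusted p = 0.059, rho = 0.529, permutation p = 0.00181, adjusted p = 0.0353, and r = 0.552 without 2 tumors). With the B cell sum, which ran from 123 to 378 in untreated, 133 to 308 in ADU-S100, 243 to 717 in anti-LTβR and 308 to 971 in combination tumors, it had r = 0.427 (permutation p = 0.0181, adjusted p = 0.126, rho = 0.470, permutation p = 0.00971, adjusted p = 0.0874, and r = 0.451 without 2 tumors). The part of these cells in the Stat4 difference was not tested.

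Stat5a and Stat5b, near-identical paralogs that answer IL-2, IL-7 and growth hormone, were both called in combination against untreated tumors. Stat5a ran from 327 through 361 to 398 in untreated, 326 through 383 to 449 in ADU-S100, 388 through 399 to 456 in anti-LTβR and 368 through 426 to 463 normalized counts in combination tumors. In 7 of 8 combination tumors it was above every untreated tumor. It rose by 0.23 (SE 0.0586, adjusted p = 0.00437) in combination tumors and by 0.17 (SE 0.0523, adjusted p = 0.035) in anti-LTβR tumors on the log2 scale, the second call being lost with the replicate number as a block (adjusted p = 0.0749), with no filter on low values (adjusted p = 0.0581) and with the sum of skeletal muscle markers described below as a covariate (0.17, adjusted p = 0.0809). It was also lost without any 1 of untreated tumors 1, 2, 4 and 8 and anti-LTβR tumors 3, 4, 5 and 7 (limma, adjusted p up to 0.0663). Within groups, Stat5a had r = 0.283 with the T cell sum (permutation p = 0.111, adjusted p = 0.296, rho = 0.319, permutation p = 0.0797, adjusted p = 0.248, and r = 0.378 without 2 tumors). The relations of the 2 paralogs were not tested against each other. The 2 paralogs lie 8626 bases apart on chromosome 11 (GRCm38), and Stat5a shares 72 bases at its 3′ end with Stat3 on the other strand. How the counting treated shared reads and strand is not given in the sources used here, so part of the reads of these 3 genes is uncertain.

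Stat5b ran from 632 through 771 to 1006 in untreated and from 757 through 913 to 1111 in ADU-S100 tumors. It ran from 813 through 961 to 1085 in anti-LTβR and from 819 through 940 to 1206 in combination tumors, and all groups overlapped. Its log2 difference in combination tumors was 0.27 (SE 0.102, adjusted p = 0.0426), the call with the highest adjusted p among the 9 genes, and it was lost without any 1 of untreated tumors 1, 4, 6, 7 and 8 and combination tumors 2, 3, 4, 6 and 7 (adjusted p up to 0.0854), or with no filter on low values (adjusted p = 0.0579). In anti-LTβR tumors it was 0.26 (SE 0.0896, adjusted p = 0.0552), and was called with DESeq2 (adjusted p = 0.0382), with equal library totals (limma, adjusted p = 0.0421), with all 4 groups in 1 fit (limma, adjusted p = 0.0461) or without untreated tumor 3 or 5 or anti-LTβR tumor 1 (limma, adjusted p down to 0.0226).

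Stat5b moved with skeletal muscle transcripts. The 3 genes whose pattern over the 32 tumors was most like it were Speg (r = 0.953), Cand2 (r = 0.948) and Stim1 (r = 0.946), of which Speg encodes a striated muscle kinase. The sum of 5 skeletal muscle markers fell into 2 separate ranges, from 5104 to 12211 in 12 tumors and from 54556 to 324487 in 20 tumors. Of the untreated tumors 5 lay in the lower range, of the ADU-S100 tumors 2, of the anti-LTβR tumors 2 and of the combination tumors 3. Stat5b was at 632 to 780 in untreated and 819 to 913 in combination tumors of the lower range, and at 891 to 1006 and 923 to 1206 in those of the upper range. On deviations from group means over all 32 tumors, Stat5b followed the muscle sum (Pearson r = 0.88, permutation p = 1e-05, adjusted p = 0.00117, Spearman rho = 0.934, permutation p = 1e-05, adjusted p = 0.00117, and r = 0.877 without 2 tumors). The ranges were split at the largest gap of the sum after the data were seen. Within a range the treatment groups were pooled, and p was adjusted over Stat5b and Stat6 in both ranges. Within the 20 tumors of the upper range Stat5b followed the muscle sum (Pearson r = 0.854, permutation p = 3e-05, adjusted p = 0.00012, Spearman rho = 0.782, permutation p = 0.00016, adjusted p = 0.00064, and r = 0.82 without 2 tumors). Within the 12 of the lower range it was not shown to (r = 0.479, permutation p = 0.114, adjusted p = 0.152, rho = 0.343, permutation p = 0.276, adjusted p = 0.368, and r = 0.00953 without 2 tumors). With the log2 muscle sum as a covariate, an alternative added after the data were seen, the Stat5b difference in combination tumors was 0.14 (adjusted p = 0.0631), while Stat4 (0.61, adjusted p = 0.00168), Socs1 (0.57, adjusted p = 0.00335), Stat2 (0.25, adjusted p = 0.016) and Stat5a (0.22, adjusted p = 0.0126) stayed past the threshold. In anti-LTβR tumors the same covariate left Stat5b at 0.12 (adjusted p = 0.156). None of the 5 muscle markers passed the test in any group against untreated tumors. Their estimates were all the same large, with a median log2 difference between 1.47 (combination) and 1.57 (anti-LTβR) in every treated group. The median muscle sum was 7870 in untreated tumors but 74118 or more in each treated group. The lack of a call therefore does not show equal muscle content. On deviations from group means over the 32 tumors, Stat5b was also related to 3 other marker sums. It rose with T cell markers (r = 0.622, permutation p = 0.00059, adjusted p = 0.023, rho = 0.635, permutation p = 0.00042, adjusted p = 0.0164, and r = 0.636 without 2 tumors). It ran against mast cell markers (r = -0.572, permutation p = 0.00094, adjusted p = 0.026, rho = -0.496, permutation p = 0.00884, adjusted p = 0.0862, and r = -0.471 without 2 tumors). It also ran against skin keratinocyte markers (r = -0.564, permutation p = 0.00224, adjusted p = 0.0437, rho = -0.555, permutation p = 0.00303, adjusted p = 0.0443, and r = -0.529 without 2 tumors). Of 5 mast cell markers 4 were lower and 1 higher in combination tumors, with sums of 404 to 925 in untreated, 161 to 1063 in ADU-S100, 151 to 274 in anti-LTβR and 219 to 429 in combination tumors. The part of these cells in the Stat5b difference was not tested.

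**Figure D3:**
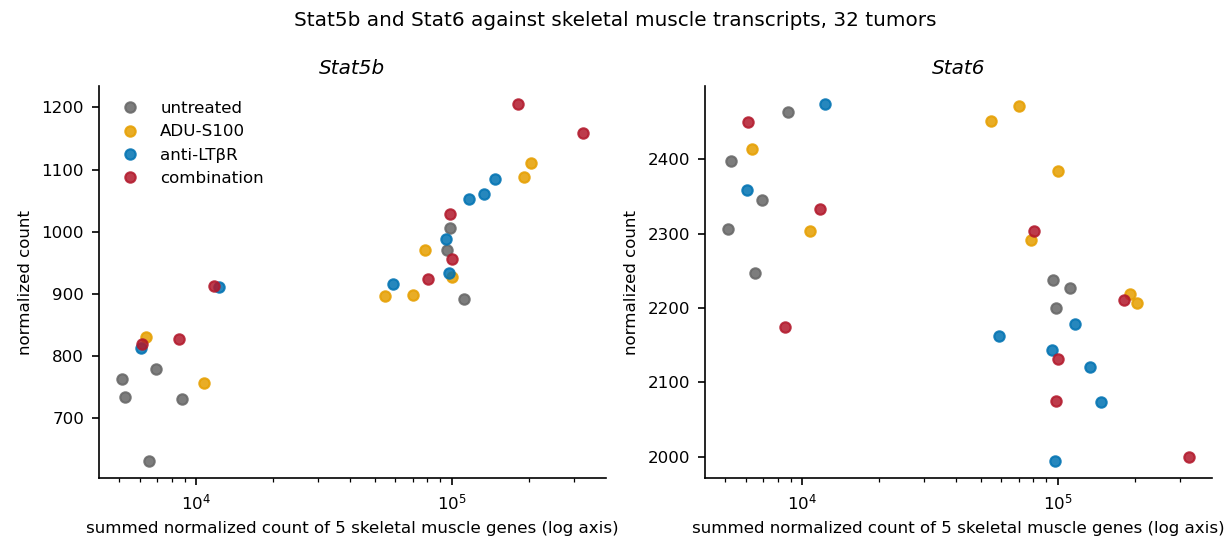
Normalized count of Stat5b and Stat6 (y axes, not from 0) against the summed normalized count of 5 skeletal muscle genes (x axis, log scale) in the 32 tumors, coloured by group. In the upper range of the muscle sum, with the groups pooled, Stat5b climbs with it (r = 0.854 over 20 tumors) and Stat6 declines (r = -0.513).

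Stat6, which carries IL-4 and IL-13 signals, and Stat3, the STAT of the IL-6 and IL-10 families, were called in none of the comparisons of all tumors. Over all tumors Stat6 ran from 1995 to 2475 normalized counts and Stat3 from 4150 to 5146. The log2 difference in combination against untreated tumors was -0.06 for Stat6 (95% interval -0.15 to 0.03) and 0.08 for Stat3 (95% interval -0.03 to 0.18). In anti-LTβR tumors Stat3 differed by 0.11 (adjusted p = 0.0804, 0.0412 with all 4 groups in 1 fit, and 0.0417 at the lowest without untreated tumor 5 or 7) and Stat6 by -0.08 (adjusted p = 0.231), and 6 of 8 anti-LTβR tumors had less Stat6 than every untreated tumor. On deviations from group means over the 32 tumors, Stat6 ran against the muscle sum (r = -0.674, permutation p = 0.00011, adjusted p = 0.00643, rho = -0.709, permutation p = 6e-05, adjusted p = 0.00351, and r = -0.648 without 2 tumors). With the groups pooled, Stat6 also ran against it within the upper muscle range (r = -0.513, permutation p = 0.0203, adjusted p = 0.0406, rho = -0.415, permutation p = 0.07, adjusted p = 0.14, and r = -0.424 without 2 tumors). Within the lower range no relation was seen (r = 0.0359, permutation p = 0.911, adjusted p = 0.911, rho = 0.0629, permutation p = 0.852, adjusted p = 0.852, and r = -0.232 without 2 tumors). The interaction term of Stat3 was -0.14 (SE 0.0543, adjusted p = 0.0623).

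Their known target genes did not move one way. Of 10 genes known as STAT3 targets, 2 were higher and 4 lower in combination against untreated tumors. Hif1a rose by 0.32 (adjusted p = 0.000516) and Saa3, an acute phase protein, by 0.85 (adjusted p = 0.0115), while Timp1 fell by 0.82 (adjusted p = 0.000353), Junb by 0.60 (adjusted p = 0.000475) and the receptor gene Il4ra by 0.24 (adjusted p = 0.00382). Of 9 genes known as STAT6 targets, 0 were higher and 1, again Il4ra, was lower against untreated tumors. Against ADU-S100 tumors 5 of the 8 tested were higher and 1 lower, where 20.2% of all genes were higher and 26% lower. Among them, and chosen after their values were seen, were Ccl24 and Retnla, products of alternatively activated macrophages, higher by 1.74 (adjusted p = 0.000349) and 1.60 (adjusted p = 0.00112). Macrophage markers were higher there as well, 5 of 5 with a median log2 difference of 0.45, and the part of these cells was not tested. Of 8 genes known as STAT5 targets 3 were higher and 2 lower against untreated tumors. Igf1 by 1.59 (adjusted p = 3.77e-05), Il2ra by 1.16 (adjusted p = 9.69e-05) and Tnfrsf4 by 0.55 (adjusted p = 0.00269) were higher, and Bcl2 fell by 0.32 (adjusted p = 0.00354) and Ccnd2 by 0.25 (adjusted p = 0.00312). Fibroblasts also express Igf1, and 5 of 5 fibroblast markers were higher in combination tumors, with none at 0. Their sums were 156707 to 577194 there, 88592 to 138258 in untreated, 64813 to 176457 in ADU-S100 and 72921 to 160386 in anti-LTβR tumors, and the part of these cells in the Igf1 difference was not tested.

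The feedback genes parted. Socs1, which blocks JAK kinases and is induced by interferons, ran from 212 through 266 to 361 normalized counts in untreated and from 216 through 277 to 338 in ADU-S100 tumors. It ran from 291 through 349 to 442 in anti-LTβR and from 258 through 461 to 552 in combination tumors. In 6 of 8 combination tumors Socs1 was above every untreated tumor and above every ADU-S100 tumor, while 3 of 8 anti-LTβR tumors were above every untreated tumor and 5 of 8 above every ADU-S100 tumor. It rose by 0.69 (SE 0.148, adjusted p = 0.00144) in combination and by 0.46 (SE 0.111, adjusted p = 0.0136) in anti-LTβR against untreated tumors on the log2 scale, and by 0.59 (SE 0.141, adjusted p = 0.0026) in combination against ADU-S100 tumors. Combination tumors differed from anti-LTβR tumors by 0.23 (95% interval -0.07 to 0.53, adjusted p = 0.251). Without combination tumor 8, the lowest of its group at 258, that difference was 0.33 (adjusted p = 0.0438). Macrophage markers were higher in combination against untreated tumors too, 3 of 5 of them with none at 0 in every tumor of a group, and their sums ran from 10083 to 18527 in untreated, 10289 to 13654 in ADU-S100, 13274 to 16357 in anti-LTβR and 13824 to 20992 in combination tumors. Within groups Socs1 had r = 0.553 with that sum (permutation p = 0.00351, adjusted p = 0.0556, rho = 0.575, permutation p = 0.00167, adjusted p = 0.0353, and r = 0.587 without 2 tumors). With the leukocyte sum it had r = 0.563 (permutation p = 0.00456, adjusted p = 0.059, rho = 0.564, permutation p = 0.0022, adjusted p = 0.0368, and r = 0.557 without 2 tumors). The part of these cells in the Socs1 difference was not tested. The genes most like Socs1 over the 32 tumors were Irf1 (r = 0.912), Acod1 (r = 0.902) and Gbp5 (r = 0.902), and those most like Stat2 were Oasl2 (r = 0.923), Parp14 (r = 0.875) and Zbp1 (r = 0.866).

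Socs3, the feedback gene of the gp130 receptors, was called in none of the 6 comparisons. Socs3 ran from 1602 through 1925 to 2397 in untreated, 1674 through 1794 to 2323 in ADU-S100, 1486 through 1813 to 2006 in anti-LTβR and 1686 through 1765 to 2080 normalized counts in combination tumors. Its log2 difference from untreated tumors was -0.07 (95% interval -0.25 to 0.10) in combination, -0.12 (95% interval -0.30 to 0.06) in anti-LTβR and -0.07 (95% interval -0.25 to 0.11) in ADU-S100 tumors. Sbno2 (r = 0.697), Bcl3 (r = 0.659) and Il6 (r = 0.636) were most like Socs3. Of 36 pairs of members tested on deviations from group means, 2 had an adjusted p below 0.05. The first was Stat3 with Socs3 (r = 0.608, permutation p = 0.0014, adjusted p = 0.0252, rho = 0.6, permutation p = 0.00196, adjusted p = 0.0353, and r = 0.54 without 2 tumors). The second was Stat5b against Stat6 (r = -0.544, permutation p = 0.00117, adjusted p = 0.0252, rho = -0.617, permutation p = 0.00035, adjusted p = 0.0126, and r = -0.564 without 2 tumors). Neither Stat3 nor Socs3 was called between groups in the pairwise fits of all tumors.

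Cish, a feedback gene that answers STAT5, ran from 223 through 327 to 605 in untreated, 251 through 289 to 434 in ADU-S100, 274 through 334 to 398 in anti-LTβR and 295 through 382 to 462 normalized counts in combination tumors. The highest value of all was untreated tumor 3, at 605. It rose by 0.30 (SE 0.111, adjusted p = 0.033) in combination against ADU-S100 tumors, and all 8 combination tumors were above the median of the ADU-S100 tumors, but the call was lost without any 1 of ADU-S100 tumors 1, 2, 6, 7 and 8 and combination tumors 3, 5 and 6 (adjusted p up to 0.0682), and with all 4 groups in 1 fit (adjusted p = 0.062). Against untreated tumors its difference in combination was 0.14 (adjusted p = 0.453), 0.26 (adjusted p = 0.0632) without untreated tumor 3 and 0.06 (adjusted p = 0.765) without untreated tumor 2. The genes most like Cish were Trf (r = 0.712), Kctd17 (r = 0.694) and Fcgr2b (r = 0.689). Most like Stat4 were Slc17a9 (r = 0.808), Gimap3 (r = 0.808) and 6330537M06Rik (r = 0.803). They were Adgrg2 (r = 0.758), Znfx1 (r = 0.741) and Trpm6 (r = 0.732) with Stat3, and Nbeal2 (r = 0.843), Trim3 (r = 0.797) and Rhbdf1 (r = 0.769) with Stat6. Fign (r = 0.771) and Arsb (r = 0.743), followed by a gene without a symbol (r = 0.734), were most like Stat5a.

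Treated groups were also compared with each other. In combination against anti-LTβR tumors 1 of 9 was higher, Stat4, and 0 lower, where 11.3% of all genes were higher and 15.3% lower. Without combination tumor 8 there were 3 calls (Stat4, Socs1 and Cish) and without anti-LTβR tumor 4 there were 2 (Stat4 and Cish). In combination against ADU-S100 tumors 3 of 9 were higher, Stat4, Socs1 and Cish, and 0 lower, against 20.2% and 26% of all genes. Leaving out single tumors gave 2 to 4 calls there, and without combination tumor 8 Stat6 fell by 0.11 (limma, adjusted p = 0.038). In anti-LTβR against ADU-S100 tumors 1 of 9 was higher, Socs1, by 0.37 (SE 0.101, adjusted p = 0.0413), and 0 lower, against 3.38% and 3.04%. That last call was lost when replicate number entered as a block (adjusted p = 0.0827), with no filter on low values (adjusted p = 0.0572), with all 4 groups in 1 fit (adjusted p = 0.110), and without any 1 of ADU-S100 tumors 1, 2, 3, 4 and 5 and anti-LTβR tumors 1, 2, 4, 5, 6 and 7 (limma, adjusted p up to 0.0851). Stat2 stood just outside the threshold there, at 0.22 (adjusted p = 0.0532), and passed it without ADU-S100 tumor 7 or anti-LTβR tumor 8 (limma, adjusted p down to 0.0175). The balance of all called genes depended on scaling: in combination against anti-LTβR tumors it was 1917 higher and 2587 lower, but 2087 and 1743 with edgeR's TMM and 2304 and 2069 with DESeq2 on recovered reads. In combination against ADU-S100 tumors it was 3391 and 4368, but 3564 and 3352 with edgeR's TMM, and in combination against untreated tumors 3310 and 3995, but 3504 and 3489 with equal library totals. In anti-LTβR against ADU-S100 tumors it was 563 and 506, but 548 and 309 with equal library totals, and for the interaction 1293 and 1947, but 1692 and 1596 with DESeq2. No called gene of the 9 changed direction with any of these scalings that tested it. Socs1 and Stat2 have no recovered reads, so of these scalings only equal library totals covered them.

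Upstream of the STATs, 2 of the 4 JAK kinase genes were higher in combination against untreated tumors. Jak3, the kinase of the common gamma chain, rose by 0.28 (SE 0.0763, adjusted p = 0.00716) in combination and by 0.32 (SE 0.0738, adjusted p = 0.0119) in anti-LTβR tumors, and Tyk2 by 0.18 (SE 0.0675, adjusted p = 0.0386) in combination tumors. Jak1 (0.05, adjusted p = 0.425) and Jak2 (-0.01, adjusted p = 0.944) did not pass. Of 24 tested genes for receptors that signal through STATs, 18 were higher and 1 lower in combination against untreated tumors, with a median log2 difference of 0.60, and in anti-LTβR tumors 9 were higher and 0 lower. Il7r rose by 1.06 (adjusted p = 1.35e-05), Il2rg, the common gamma chain, by 0.92 (adjusted p = 7.78e-05) and Lifr by 0.67 (adjusted p = 4.28e-05), and Il4ra was the 1 that fell. Lymphocytes carry Il7r, Il2rg and Jak3, and the T cell (5 of 5), B cell (4 of 5) and leukocyte (4 of 5) markers given above were higher in the same comparison. The part of these cells in the receptor and kinase differences was not tested. Of 14 tested ligand genes 5 were higher and 3 lower. Besides Ifng, Ebi3 rose by 0.66 (adjusted p = 0.000696) and Il7, a lymphocyte survival factor, by 0.46 (adjusted p = 0.011), while Il10 fell by 0.87 (adjusted p = 0.00141), Csf2 by 0.87 (adjusted p = 0.0191) and Clcf1 by 0.69 (adjusted p = 0.000505). Il10 ran from 20.7 to 55 in untreated and from 15 to 25.8 normalized counts in combination tumors.

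Among other brakes on the pathway, 2 of the 5 remaining SOCS genes fell and 0 rose. Socs5 was at 2962 to 3773 normalized counts in untreated and 1705 to 2705 in combination tumors, with no overlap, and fell by 0.62 (SE 0.0869, adjusted p = 6.11e-05) on the log2 scale. Socs6 fell by 0.28 (SE 0.0686, adjusted p = 0.00348), and no untreated tumor was as low as 7 of the 8 combination tumors. Socs4 (-0.20, adjusted p = 0.118), Socs2 (-0.10, adjusted p = 0.363) and Socs7 (-0.03, adjusted p = 0.728) did not pass. In the interaction fit of limma, 4 of these 5 SOCS genes (all but Socs2) were negative and called, as was Irf9. Over all genes 7.33% were called positive and 11% negative there. Of the 9 genes 0 were called in limma, while DESeq2 called Stat4 (adjusted p = 0.0493). Of 9 PIAS and phosphatase genes 4 were higher and 1 lower in combination tumors. Ptprc, the leukocyte phosphatase CD45, rose by 0.59 (adjusted p = 0.000128), Ptpn6, the phosphatase SHP-1, by 0.44 (adjusted p = 0.000969), Ptpn1 by 0.14 (adjusted p = 0.0302), and Pias2 fell by 0.22 (adjusted p = 0.00728). Markers of tumor epithelium fell in the same tumors, 3 of 5 of them, with sums of 15947 to 28939 in untreated, 13223 to 21772 in ADU-S100, 13111 to 16160 in anti-LTβR and 6829 to 14654 in combination tumors. The part of the change in cell makeup in the Socs5 and Socs6 differences was not tested.

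**Figure D4:**
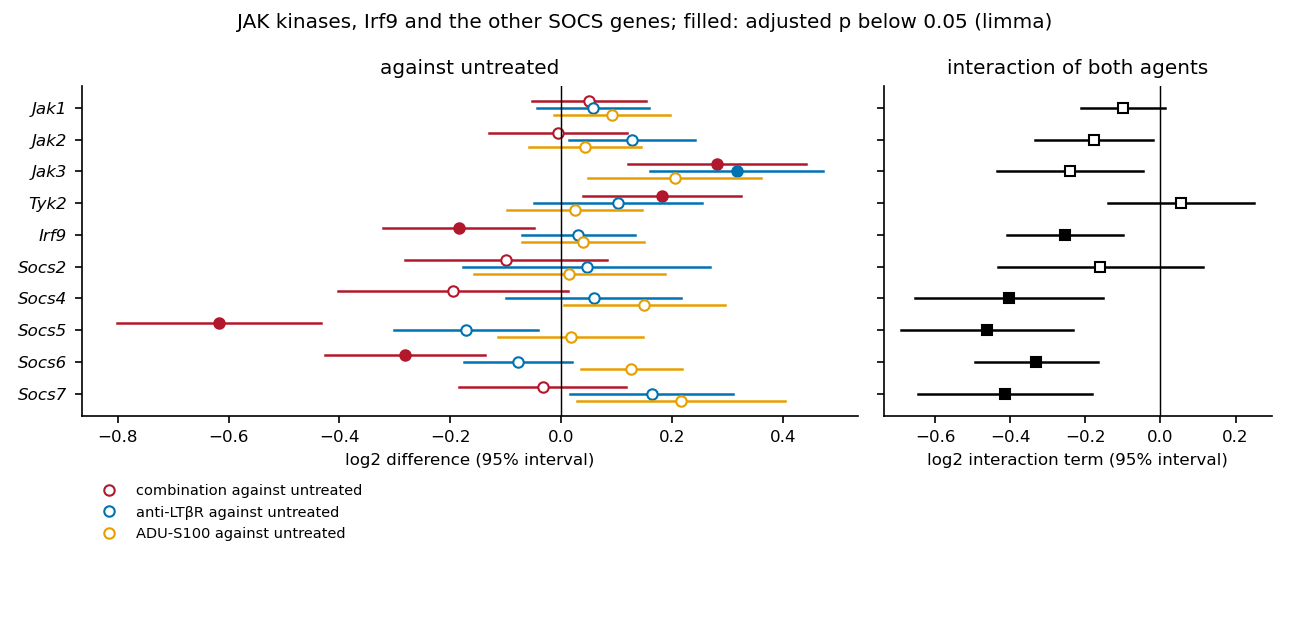
Log2 difference from untreated tumors (left, x axis) and log2 interaction term of both agents (right, x axis) with 95% intervals for the JAK kinases, Irf9 and the other SOCS genes (y axis), 8 tumors a group; filled points have an adjusted p below 0.05 in limma. Socs5, Socs6 and Irf9 lie below 0 in combination tumors, and the interaction terms of Irf9, Socs4, Socs5, Socs6 and Socs7 are called and negative.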

How the data were processed

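Poly(A) RNA of individual tumors was sequenced as paired-end stranded libraries. For mouse tissue the authors' methods give alignment by HISAT2 with StringTie, and the submitters' processing notes list cutadapt 1.9, FastQC, HISAT2, StringTie, DESeq2, edgeR, Partek and STAR with build mm39; which of them made each table is not given in the sources used here. The signal the authors deposited for the 32 tumors is normalized counts, that is, estimated reads of a gene scaled by a size factor of the library. A second deposited signal table holds 52 libraries, and in it values are whole multiples of 1 step per library, from which whole reads were recovered (100% whole within 0.1 read); in the 32 tumors the step ran from 0.942 to 1.22. Socs1 and Stat2 have no row there, so count tests covered 7 of the 9 genes. Another table, the authors' gene set enrichment scores and p-values, was not used. Its values are their own findings. Positions are of GRCm38 only.

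Groups and replicate numbers come from the sample titles. The 9 genes and the lists of pathway and marker genes were chosen with earlier results of these data known. Of the lists, genes were named where they were among the 3 smallest adjusted p-values of their list and direction in combination against untreated tumors, and every JAK and SOCS gene was named (1 other listed gene is not reported here); Il12rb2 and Il2ra of the receptors appear as STAT targets, and Ccl24 and Retnla were named after their values were seen. For each member the 3 genes with the highest Pearson r over the 32 tumors were named, of 17649 that passed the filter. Comparisons used limma 3.58.1 (R 4.3.3, trend) on log2(normalized count + 1) of the 16 tumors compared, after edgeR 4.0.16 filterByExpr with a count minimum of 10, with Benjamini-Hochberg adjustment over all genes tested; the interaction used all 32. A fold change on this scale understates that of low genes. Correlations used 100000 two-sided permutations, within groups where deviations were used. Alternatives were edgeR with TMM and DESeq2 1.42.0 on recovered reads, equal library totals, no filter, a pseudocount of 0.5, all 4 groups in 1 fit, the replicate block, a 2-fold threshold and leaving out each tumor; the muscle covariate was added after the data were seen. The tests were checked on simulated counts. Recovered reads ran from 12762453 to 15591986 per tumor. Per-sample columns left unused number 0. The 20 libraries of another experiment, 15 of them with labels that contradict each other, entered no comparison.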

Additional observations from a re-analysis of the deposited data

Results flagged for a closer look

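In 36 groups of 8 tumors examined, 3 had a tumor far from the others by Dixon's criterion, and chance flags about 1 in 20. Stat4 was at 56.1 in combination tumor 4, Socs3 at 2323 in ADU-S100 tumor 5 and Cish at 605 in untreated tumor 3. Without combination tumor 4 Stat4 remained past the threshold against untreated, anti-LTβR and ADU-S100 tumors.

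Among the JAK kinases, Irf9 and the other SOCS genes, the effect of anti-LTβR differed with and without ADU-S100 in 5 genes, and it did so in 0 of the 9. These calls are of the interaction test of limma over 32 tumors. The log2 interaction was -0.25 for Irf9 (adjusted p = 0.0192), -0.40 for Socs4 (adjusted p = 0.0212), -0.46 for Socs5 (adjusted p = 0.00491), -0.33 for Socs6 (adjusted p = 0.00511) and -0.41 for Socs7 (adjusted p = 0.0116). In other pathway lists, 4 of 24 receptors, 3 of 8 STAT5 targets and 2 of 9 STAT6 targets were called positive. So was 1 each of the ligands, STAT3 targets and STAT4 targets. Called negative were 2 of 9 PIAS and phosphatase genes, 1 ligand and 1 STAT5 target. Some genes stand in more than 1 list. Over all genes 7.33% were called positive and 11% negative.

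Signal of the genes was also present in libraries outside the comparisons. In the 5 libraries of another experiment whose labels all give the combination, the median normalized count, on the scale of the 52-library table, was 3711 for Stat3, 162 for Stat4, 276 for Stat5a, 786 for Stat5b, 2021 for Stat6, 2833 for Socs3 and 413 for Cish. That experiment has no control group with agreeing labels here, and no difference was tested.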

How the results depend on the processing

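Counting each gene in each comparison under each other setting as 1 result, direction and call held in 386 of 405. A call was lost in 9, gained in 6, and the direction changed in 4. Most of these results were not calls in the main fit. With single tumors left out, 793 of 864 results held, while 37 lost a call, 11 gained one and 23 changed direction. With edgeR 3, 1 and 0 genes were called in combination and anti-LTβR against untreated and anti-LTβR against ADU-S100 tumors, and with DESeq2 3 in combination against untreated, 2 in combination against anti-LTβR, 0 in anti-LTβR against ADU-S100 tumors and 1 in the interaction (Stat4); both tested only 7 genes. Among those 7 genes limma called Stat4, Stat5a and Stat5b in combination against untreated and Stat5a in anti-LTβR against untreated tumors. It called none of them in anti-LTβR against ADU-S100 tumors. The lower counts of edgeR therefore came from the missing Socs1 and Stat2. A 2-fold threshold left 0 in every comparison. All 4 groups in 1 fit gave 5 in anti-LTβR against untreated and 0 in anti-LTβR against ADU-S100 tumors, no filter 0 in the latter and the muscle covariate 2. No filter gave 4 in combination against untreated and 2 in anti-LTβR against untreated tumors, as many as the muscle covariate in each. Calls over all genes moved too. In anti-LTβR against untreated tumors they numbered 2555 in the main fit, 3366 in 1 fit, 2075 with no filter and 1364 with the covariate. In anti-LTβR against ADU-S100 tumors they were 1069, 475, 710 and 1510, and in combination against untreated tumors 7305, 8438, 7438 and 6863. Leaving out single tumors gave 2 to 5 calls in anti-LTβR against untreated (5 without untreated tumor 5), 1 to 3 in combination against anti-LTβR (with combination tumor 8 or anti-LTβR tumor 4 left out above 1) and 0 to 2 in anti-LTβR against ADU-S100 tumors, where 13 of 16 tumors changed the count.

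Differences near 0 changed sign. In combination against ADU-S100 tumors Stat3 was 0.0033 with edgeR, and Socs3 0.0291 with edgeR, 0.0178 with DESeq2 and 0.0247 with equal library totals. Over single tumors left out, the log2 difference ran from -0.0296 to 0.0440 for Socs3 there, from -0.144 to 0.0605 for Cish in anti-LTβR against untreated, from -0.0799 to 0.0418 for Stat4 in ADU-S100 against untreated, from -0.0384 to 0.0412 for Stat5b and -0.00736 to 0.0401 for Stat6 in combination against anti-LTβR, and from -0.0108 to 0.0124 for Stat3 in anti-LTβR against ADU-S100 tumors. The cause of these shifts was not tested.

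The sources used here do not say whether tumors with the same replicate number share a mouse, or whether tumors of 1 group do, so p-values measure the spread between tumors. In none of the 6 comparisons did every same-numbered pair deviate together with r above 0.1, so they were not treated as pairs. That held for 6 of 8 pairs in ADU-S100 against untreated (mean r = 0.186, against -0.0288 for other numbers), 5 in combination against anti-LTβR (mean r = 0.173, against -0.0254) and 2 to 4 in the other comparisons (mean r from -0.0855 to 0.0181). A rule that asks it of every pair cannot exclude that some tumors are paired. With the replicate block 0 genes were called in anti-LTβR against ADU-S100 tumors (Socs1 lost), 2 in anti-LTβR against untreated (Stat5a lost), and no other count changed. Depth limits Stat4 most.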

Other observations

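Of the 5 libraries of the other experiment labelled as combination, number 3 stands apart, with 8716257 recovered reads and 1 read worth 3.78 normalized counts, against 18028314 to 18789131 reads and 0.817 to 0.959 in the other 4. In the 5 libraries Socs3 ran from 1169 to 13467 normalized counts and Stat4 from 87.8 to 208, while on the same scale the 32 tumors ran from 1521 to 2479 for Socs3 and from 37.2 to 106 for Stat4. In the 15 libraries with contradicting labels Socs3 ran from 1606 to 4822 with a median of 1856, and Stat4 from 36.8 to 220 with a median of 127.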
